A study of Homo sapiens with 52 samples.

Results

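The end of a retinoic acid course was set against the undifferentiated state in human embryonic stem cells, to ask which genes tell the 2 states apart. The late side held 6 samples of the line H1, 2 each from days 8, 9 and 10. The cells were differentiated with retinoic acid, the active form of vitamin A, at 5 µM. The undifferentiated side held 6 samples, 2 each of H1 before treatment (day 0), H9 and HUES8, all of them embryonic stem cell lines kept in mTeSR medium on Matrigel. These 12 of the 26 samples were chosen by their labels, and no measured value entered the choice. Total RNA of each sample was read on both chips, A and B, of the Affymetrix HG-U133 pair. The probe sets of A and B differ. The labels call the 2 samples of a group biological replicates but do not say whether the days came from separate cultures, so p-values measure the spread between these samples only. No untreated H1 culture of days 8 to 10 was analysed here, so retinoic acid and time in culture cannot be told apart. All late samples are H1 cells, whereas the undifferentiated side mixes 3 lines. In bulk samples such as these, fewer cells of a type and less RNA per cell cannot be told apart.

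Embryonic stem cells hold a network of transcription factors, with NANOG, SOX2 and OCT4 at its centre, that keeps lineage genes low. Retinoic acid binds RAR receptors, which sit on DNA with RXR partners and switch on nearby genes when the ligand arrives. Classic targets are the CYP26 enzymes, which break retinoic acid down, the receptor gene RARB and the HOX genes at the anterior end of each cluster.

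Values are the deposited signals, linear intensities, and a side's 6 samples are given as lowest, median and highest. Differences are late minus undifferentiated means of log2 signal, with their standard error and n = 6 a side, the 2 samples of a group counted singly. They were tested with limma's moderated test, and p-values were adjusted by Benjamini-Hochberg over 12201 genes of both chips. Calls are differences with an adjusted p below 0.05. Presence in a sample means a detection p-value below 0.05. For genes present nowhere on the dimmer side, only a lower bound of the fold ("at least") is printed, with dim signals raised to the lowest signal called present on their array. Brighter-side signals entered unchanged, so where some of them lacked a present call the printed fold is not a strict bound. Genes present in only some dimmer-side samples keep a plain difference, whose size rests in part on signals that were not detected.

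Of these genes 5104, or 41.8%, were called. A fit on the mean of each group, 1 value per group, called 3837. Late samples were higher for 2653 genes (21.7%) and lower for 2451 (20.1%), and the median difference over all genes was 0.01. Centring each array on its control probe sets moved that median to 0.14 and the split to 3232 higher and 1889 lower. Changes of at least 2-fold were called upwards for 1220 genes and downwards for 842. The 6 late and 6 undifferentiated values did not overlap for 2867 genes (23.5%). The 3' to 5' ratio of the ACTB control probe sets, a measure of RNA integrity and of transcript length in the labelled material, also separated the sides. On the A chip it was 1.45 to 1.89 in late samples and 1.17 to 1.32 in undifferentiated samples, and on the B chip 1.57 to 1.98 in late samples and 1.31 to 1.57 in undifferentiated samples. Each chip's difference had an exact two-sided permutation p of 0.00217, the smallest that 6 against 6 samples allow. The GAPDH ratio did not differ detectably (exact permutation p = 0.524 for chip A and 0.732 for chip B). The share of probe sets called present was 36.8% to 40.1% in late samples and 32.3% to 36.2% in undifferentiated samples on the B chip (exact permutation p = 0.00217). On the A chip the sides overlapped, at 47.13% to 54.21% in late samples and 45.02% to 53.01% in undifferentiated samples (exact permutation p = 0.0974). Because the ACTB ratio ran with the sides, its part in the calls was not tested. Counts from a fit with this ratio as a covariate, which called 1938 genes (15.9%), 1086 higher (8.9%) and 852 lower (6.98%), are given beside gene groups. Counts on a gene list are to be read beside these shares, or beside 21.7% higher and 20.1% lower without the covariate. A gene had to be present on at least 2 of its chip's 26 arrays, treated days included. Genes undetected in the undifferentiated lines thus entered only through treated samples, which can tilt list counts and medians upwards.

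**Figure D1:**
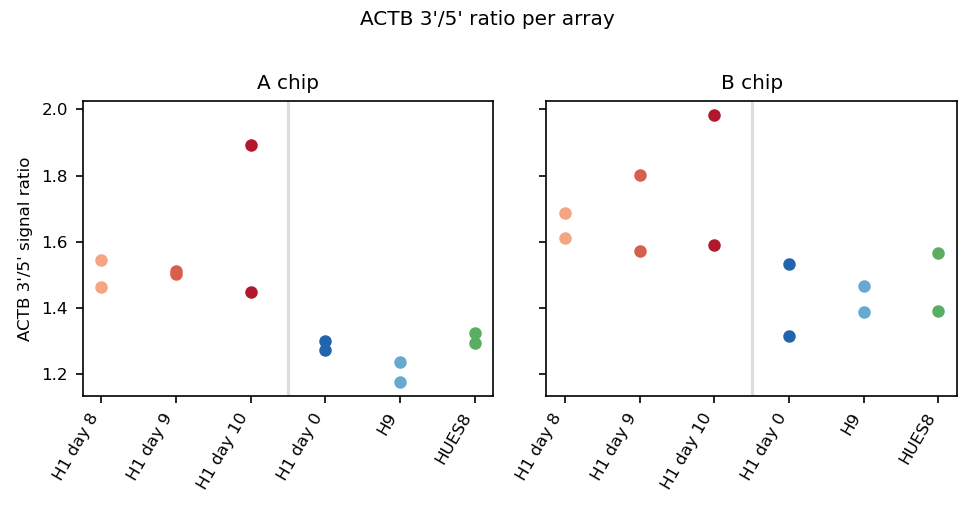
ACTB 3' to 5' ratio of each array, with 6 late arrays left of 6 undifferentiated arrays on each chip. On both chips every late array lies above every undifferentiated array.

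The miR-302 family marks human pluripotent cells, and a reading of its cluster was called lower in late samples. The array does not read the mature microRNAs. It reads a probe set annotated to MIR302B, taken here to lie in the longer transcript of the cluster, which was not checked against probe sequences. The mature 3p sequences of the cluster are shown because 4 of them share the seed, bases 2 to 8, that pairs with target messages, while miR-367 has another. Capitals mark the seed, and the sequences and positions are those of RefSeq on GRCh38.p14, all on the minus strand.
hsa-miR-302a-3p, chr4:112648186-112648208: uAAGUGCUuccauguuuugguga
hsa-miR-302b-3p, chr4:112648489-112648511: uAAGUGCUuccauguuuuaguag
hsa-miR-302c-3p, chr4:112648366-112648388: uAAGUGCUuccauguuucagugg
hsa-miR-302d-3p, chr4:112648006-112648028: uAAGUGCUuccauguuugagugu
hsa-miR-367-3p, chr4:112647877-112647898: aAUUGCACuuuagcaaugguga
MIR302B had signals of 329, 1437 and 4421 in late samples, against 63079, 68412 and 76835 in undifferentiated samples. It fell by 5.87 ± 0.46 on the log2 scale (adjusted p = 3.3e-08), and no late sample came near the undifferentiated range. All 6 late samples still had the transcript called present. LINC00458, a long noncoding RNA, had signals of 307, 764 and 1212 in late samples and 4542, 15982 and 21283 in undifferentiated samples, and fell by 4.37 ± 0.37 (adjusted p = 7.44e-08).

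Pluripotency genes moved one way. Of 26 measured genes on this list 22 were called lower, none was called higher, and the list's median difference was -2.85, beside 20.1% called lower and a median of 0.01 over all genes. With the ACTB ratio as a covariate 21 were called lower. NANOG, a homeodomain factor of the network's core, had signals of 79.2, 110.5 and 405 in late samples, against 4599, 5608 and 6017 in undifferentiated samples. Late samples lay wholly below, 2 of 6 had the transcript called present, and it fell by 5.20 ± 0.31 (adjusted p = 1.24e-09). SOX2, its HMG-box partner, had 957, 1525 and 1774 in late samples and 10430.2, 12590.5 and 15701 in undifferentiated samples. That fall, by 3.20 ± 0.16 (adjusted p = 1.48e-10), left SOX2 present in all 6 late samples. USP44, a ubiquitin protease, had 213, 328 and 754 in late samples and 8915, 10081 and 10520.3 in undifferentiated samples, with no overlap, and fell by 4.83 ± 0.24 (adjusted p = 9.85e-11). GAL, which encodes the neuropeptide galanin, had 24.5, 132.9 and 221 in late samples and 2730.4, 3386 and 4612 in undifferentiated samples, and fell by 5.02 ± 0.38 (adjusted p = 2.94e-08).

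Among the members that fell were genes of the NODAL pathway. LEFTY1, a secreted NODAL antagonist, had 97.7, 438 and 1332 in late samples and 3615, 7239 and 8157 in undifferentiated samples, and fell by 4.04 ± 0.48 (adjusted p = 4.19e-06). The late samples spread widely but stayed below every undifferentiated one. GDF3, a ligand of the same family, was present in no late sample, with signals of 24.8, 108 and 185, against 787, 1358 and 1987 in undifferentiated samples. Its level was at least 15.0-fold lower in late samples (adjusted p = 1.09e-06). PRDM14, a zinc finger repressor of lineage genes, also had no present call in late samples, with 21.2, 24.8 and 32.0, against 347, 871 and 1326 in undifferentiated samples. PRDM14 was thus lower by at least 25.1-fold (adjusted p = 9.3e-10), although 2 of the 6 undifferentiated samples also lacked a present call. Signals of DNMT3B, a de novo DNA methyltransferase, were 883, 1703 and 3076 in late samples and 10035, 11144 and 14313 in undifferentiated samples. It fell by 2.78 ± 0.24 (adjusted p = 1.42e-07) and was present throughout.

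The list did not empty out. The 4 members not called were LIN28A, LIN28B, CD24 and TERT, named after their values were seen. LIN28A, an RNA-binding protein that holds back let-7 maturation, had 3591, 6246 and 11860.3 in late samples and 7668, 9395 and 12005 in undifferentiated samples, a difference of -0.51 ± 0.23 (adjusted p = 0.0819). Without day 8 replicate 2 it fell by 0.68 and was called (adjusted p = 0.0146), and without day 9 replicate 2 it fell by 0.63 (adjusted p = 0.0366). Its paralog LIN28B had 7425, 10189 and 12843 in late samples and 8356, 12114 and 14713 in undifferentiated samples, a difference of -0.22 ± 0.16 (adjusted p = 0.293). For both, the 2 sides overlapped. OCT4 itself, the product of POU5F1, had no probe set annotated to it alone. Probe sets annotated to its retrogene and pseudogenes share sequence with it, so which transcript they read is uncertain. The one for POU5F1B had signals of 618, 1019 and 1755 in late samples and 17359, 19692 and 22819.6 in undifferentiated samples, and fell by 4.36 ± 0.20 (adjusted p = 7.99e-11). The one for POU5F1P3 fell by 4.42 ± 0.20. The one for POU5F1P4 fell by 4.93 ± 0.22.

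**Figure D2:**
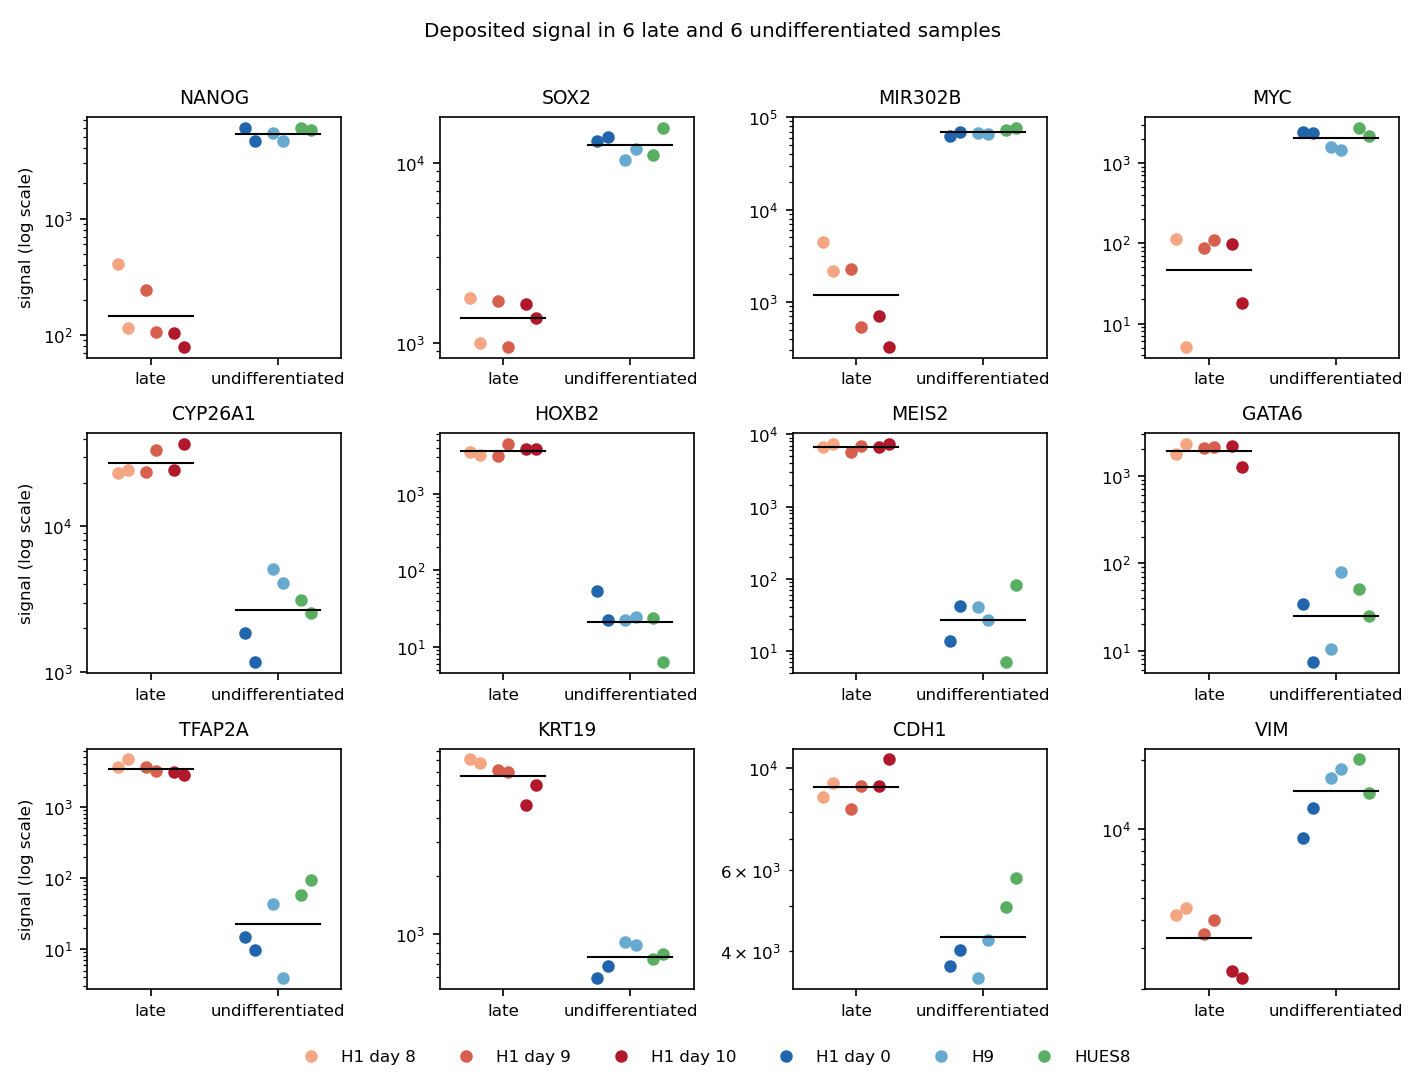
Deposited signal (log scale) of 12 genes in 6 late samples (left, days 8 to 10 in reds) and 6 undifferentiated samples (right, H1 day 0, H9 and HUES8), 1 point per sample, with a black line at the mean of log2 signal. NANOG, SOX2, MIR302B, MYC and VIM lie lower in late samples, the other 7 genes lie higher, and in none of the 12 do the sides overlap.

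Of 20 measured genes of retinoid metabolism and response 12 were called higher (21.7% over all genes) and 3 lower, with a median difference of 1.61. With the ACTB ratio as a covariate 10 were called higher and 1 lower. With no filter on present calls 12 of 25 were higher and 3 lower, with a median difference of 0.82. CYP26B1, which oxidises retinoic acid, was present in no undifferentiated sample and all 6 late samples. Its signals were 2809, 5007 and 9738 in late samples, against 3.30, 8.38 and 21.5 in undifferentiated samples, at least 188-fold higher (adjusted p = 6.32e-11). The related enzyme CYP26A1 was already detected before treatment. It had 23393, 24281 and 37009 in late samples and 1162, 2842 and 5082 in undifferentiated samples, and rose by 3.35 ± 0.27 (adjusted p = 6.55e-08) with no overlap. RARB, a retinoic acid receptor, had 467, 566 and 726 in late samples and 38.4, 96.8 and 123 in undifferentiated samples, none of which had it called present. It was at least 6.95-fold higher (adjusted p = 2.85e-07), although 1 of its other probe sets differed by only 0.16.

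MEIS2 and MEIS1 encode homeodomain partners of HOX proteins. MEIS2 had signals of 5684, 6739.7 and 7435 in late samples and 6.89, 33.5 and 80.8 in undifferentiated samples, and rose by 7.99 ± 0.42 (adjusted p = 2.85e-10). The late samples were close together, and 1 of 6 undifferentiated samples had a present call. MEIS1 had 2245, 2520.0 and 2903 in late samples and 12.5, 42.6 and 83.4 in undifferentiated samples, at least 60.9-fold higher (adjusted p = 3.85e-10). CRABP2, a carrier of retinoic acid inside cells that was named after its values were seen, had 4284, 8206 and 13350.1 in late samples and 407, 763 and 1233 in undifferentiated samples. It rose by 3.41 ± 0.26 (adjusted p = 2.26e-08). The 3 members that fell were ALDH1A3, LRAT and RDH11. ALDH1A3, which makes retinoic acid from retinal, had 2.92, 14.5 and 83.6 in late samples and 172, 235 and 435 in undifferentiated samples and fell by 4.14 ± 0.66 (adjusted p = 9.76e-05). That call ended with the ACTB ratio as a covariate (difference -1.51, adjusted p = 0.289). LRAT, which stores retinol as an ester, was present in no late sample and 3 undifferentiated ones and was at least 2.79-fold lower (adjusted p = 0.00202).

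The promoters of CYP26A1 and RARB are shown because both hold a direct repeat of the RAR half-site 5 bases apart, the DR5 element. Searched were pairs of half-sites in the same direction, each half-site reading AGGTCA, or else its variant AGTTCA, or else the variant GGGTCA, or lastly the variant GGTTCA, separated by 5 bases, on both strands of the 250 bases before each gene's start in RefSeq. Of 35116 such windows 26 held a match, or 0.074%. Of 136 called genes that the naming rules gave, not all of them described here, 85 had a window, and these 2 held a match, so they were shown after the matches were seen. Each line gives the window on the plus strand of GRCh38.p14, 5′ to 3′, with the match in capitals. The CYP26A1 match runs from -90 to -74 relative to the gene's start and reads as a DR5 on the minus strand. The RARB match runs from -53 to -37 and lies on the plus strand. A match is a description of these letters and not evidence of binding in these cells.
CYP26A1 window, chr10:93073643-93073892: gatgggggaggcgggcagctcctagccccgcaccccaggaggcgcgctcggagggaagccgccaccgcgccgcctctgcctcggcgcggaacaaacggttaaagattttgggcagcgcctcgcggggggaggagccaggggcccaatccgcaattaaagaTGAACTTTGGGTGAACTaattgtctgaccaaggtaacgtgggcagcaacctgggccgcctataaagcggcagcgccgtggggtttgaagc
RARB window, chr3:25428013-25428262: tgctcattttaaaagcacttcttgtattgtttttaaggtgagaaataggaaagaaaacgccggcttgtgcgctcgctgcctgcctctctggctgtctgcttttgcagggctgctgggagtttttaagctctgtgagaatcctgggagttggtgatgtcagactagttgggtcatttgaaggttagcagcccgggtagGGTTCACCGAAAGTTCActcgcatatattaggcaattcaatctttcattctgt

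HOX genes specify position along the body axis, and the low-numbered ones act in hindbrain and anterior trunk. All 10 measured members of paralog groups 1 to 5 were called higher in late samples, and the 10 calls held with the ACTB ratio as a covariate. The list's median difference was 4.55, or 3.85 with genes undetected on the undifferentiated side set at their bound. HOXB2 had signals of 3103, 3678 and 4528 in late samples, against 6.27, 23.0 and 53.6 in undifferentiated samples, at least 128-fold higher (adjusted p = 8.04e-11). HOXB3 had 13265, 17696 and 20232 in late samples and 56.0, 168 and 295 in undifferentiated samples, at least 103-fold higher (adjusted p = 3.16e-11), while its other probe set rose by 2.55. Both genes were present in all late samples and in no undifferentiated one. HOXC5 showed the same on another chromosome, with 1076, 1588 and 1852 in late samples and 11.2, 15.9 and 22.7 in undifferentiated samples, at least 53.4-fold higher (adjusted p = 3.23e-12). HOXB1, a rhombomere gene, had 2739.6, 3402 and 5445 in late samples and 20.1, 33.6 and 88.2 in undifferentiated samples, at least 46.2-fold higher (adjusted p = 1.48e-10).

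Of 8 measured members of HOX groups 6 to 13, HOXB7, HOXB8 and HOXC6 were called higher and none lower, with a median difference of 0.62, or 0.45 with bounds. HOXB8 was present in 2 late samples, with 38.1, 115 and 186, and in no undifferentiated sample, with 5.33, 8.08 and 31.5, at least 3.66-fold higher (adjusted p = 0.000198). With the ACTB ratio as a covariate 1 of the 3 calls was left. The choice of probe set mattered here. HOXB6 was at least 1.32-fold higher but not called (adjusted p = 0.324) on the probe set used, and differed by 8.01 on its other one, and with the mean of a gene's probe sets 5 members were called higher and the list's median difference was 1.83.

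Simple epithelia line ducts and early embryonic surfaces and are held together by keratins, claudins and cadherins. On the simple epithelium list 21 of 29 measured genes were called higher and 4 lower, with a median difference of 1.08, and 17 and 0 with the ACTB ratio as a covariate. KRT7, a keratin of simple epithelia, had signals of 736, 1607 and 1863 in late samples and 12.6, 45.0 and 94.0 in undifferentiated samples, and rose by 5.16 ± 0.37 (adjusted p = 1.31e-08). KRT19, another simple keratin, had 4699, 7084 and 8099.9 in late samples and 591, 771 and 911 in undifferentiated samples, and rose by 3.14 ± 0.14 (adjusted p = 6.32e-11). Neither keratin overlapped between the sides. ELF3, an epithelial ETS factor, was called present in no undifferentiated sample. It had 1106, 1328 and 1586 in late samples, against 24.8, 117 and 253 in undifferentiated samples, at least 10.1-fold higher (adjusted p = 2.12e-06). CLDN4, a tight junction claudin, had 627, 697 and 916 in late samples and 70.0, 88.1 and 136 in undifferentiated samples, at least 7.83-fold higher (adjusted p = 2.87e-09).

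Of the classical cadherins CDH1 was called and CDH2 was not. CDH1, the epithelial cadherin, had 8125, 9130.1 and 10437 in late samples and 3479.6, 4116 and 5743 in undifferentiated samples, and rose by 1.08 ± 0.12 (adjusted p = 1.78e-06). EPCAM, an epithelial adhesion molecule, had 8073, 8858 and 10205 in late samples and 3613, 4266 and 5855 in undifferentiated samples, and rose by 1.01 ± 0.13 (adjusted p = 8.33e-06). Both were well expressed on the undifferentiated side and both rose with no overlap. CDH2, the neural cadherin, had 1153, 1962 and 3136 in late samples and 1518, 2419 and 3671 in undifferentiated samples, a difference of -0.33 ± 0.23 that was not called (adjusted p = 0.277). VIM, the intermediate filament vimentin, had 2218, 3739 and 4489 in late samples and 9131, 15592 and 20160.5 in undifferentiated samples, and fell by 2.14 ± 0.21 (adjusted p = 4.42e-07). The 4 epithelial genes called lower, OCLN, CLDN6, AP1M2 and MAL2, had differences of -0.62, -0.53, -0.50 and -0.35, and none of those calls held with the ACTB ratio as a covariate, where the differences were -0.51, -0.52, -0.53 and -0.23. The calls of CLDN6 and MAL2 also ended under both other scalings and in the fit on the mean of each group.

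Amnion and surface ectoderm are early epithelia that share AP-2 factors. Of 16 measured genes on the amnion list 13 were called higher and none lower (9 and 0 with the ACTB covariate). All 6 measured on the surface ectoderm list were called higher (3 with the covariate). Of those 6, 3 did not overlap between the sides, 2 were higher than in each line, and 1 was present in no late sample. With no filter on present calls 6 of 12 were higher on that list and 11 of 17 on the amnion list, none lower on either. The amnion list had a median difference of 3.21, or 2.69 with bounds. KRT5, KRT14 and TP63, markers of the basal skin layer, were not measured, having no probe set of their own or too few present calls. TFAP2A, an AP-2 factor of ectoderm shared by both lists and by neural crest, had 2794, 3372 and 4630.1 in late samples and 3.89, 28.7 and 92.2 in undifferentiated samples. It rose by 7.27 ± 0.57 (adjusted p = 4.18e-08), and its other probe sets rose by 2.40 and 3.42. Under the alternative settings listed below the rise of TFAP2A was 4.36 to 8.12. TFAP2B had 428, 1093 and 1477 in late samples and 3.72, 25.0 and 62.5 in undifferentiated samples, and rose by 5.42 ± 0.54 (adjusted p = 6.09e-07). IGFBP3, a secreted binder of insulin-like growth factors, had 4144, 5563 and 7891 in late samples and 127, 209 and 383 in undifferentiated samples, and rose by 4.63 ± 0.22 (adjusted p = 9.79e-11). For all of these the sides were apart.

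Trophoblast, the outer layer of the placenta, shares many of these genes. Of 11 measured genes 7 were called higher and 2 lower (4 and 1 with the ACTB covariate). With no filter on present calls 6 of 19 were higher and 2 lower. Summed over the 11, the signal was 6071 to 7385 in late samples and 3494 to 5222 in undifferentiated samples. MUC15, a membrane mucin, had 700.4, 892 and 1095 in late samples, of which 2 had a present call, and 13.2, 23.9 and 37.5 in undifferentiated samples. It was at least 12.4-fold higher (adjusted p = 3.07e-09). These MUC15 sides lay far apart. GATA2, a zinc finger factor of trophoblast and blood, had 227, 273 and 395 in late samples and 15.2, 52.9 and 85.4 in undifferentiated samples, at least 5.60-fold higher (adjusted p = 2.62e-05), yet its other probe set differed by 0.05. GATA3, a GATA factor of the same lineage, had 118, 182 and 209 in late samples and 8.88, 21.6 and 89.8 in undifferentiated samples, at least 5.07-fold higher (adjusted p = 0.000115), a call that ended with the ACTB covariate (difference 2.44, adjusted p = 0.0674). Of the defining markers, CGA, CGB3, CGB5, GCM1 and ERVW-1 were not measured, having no probe set of their own or too few present calls.

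**Figure D3:**
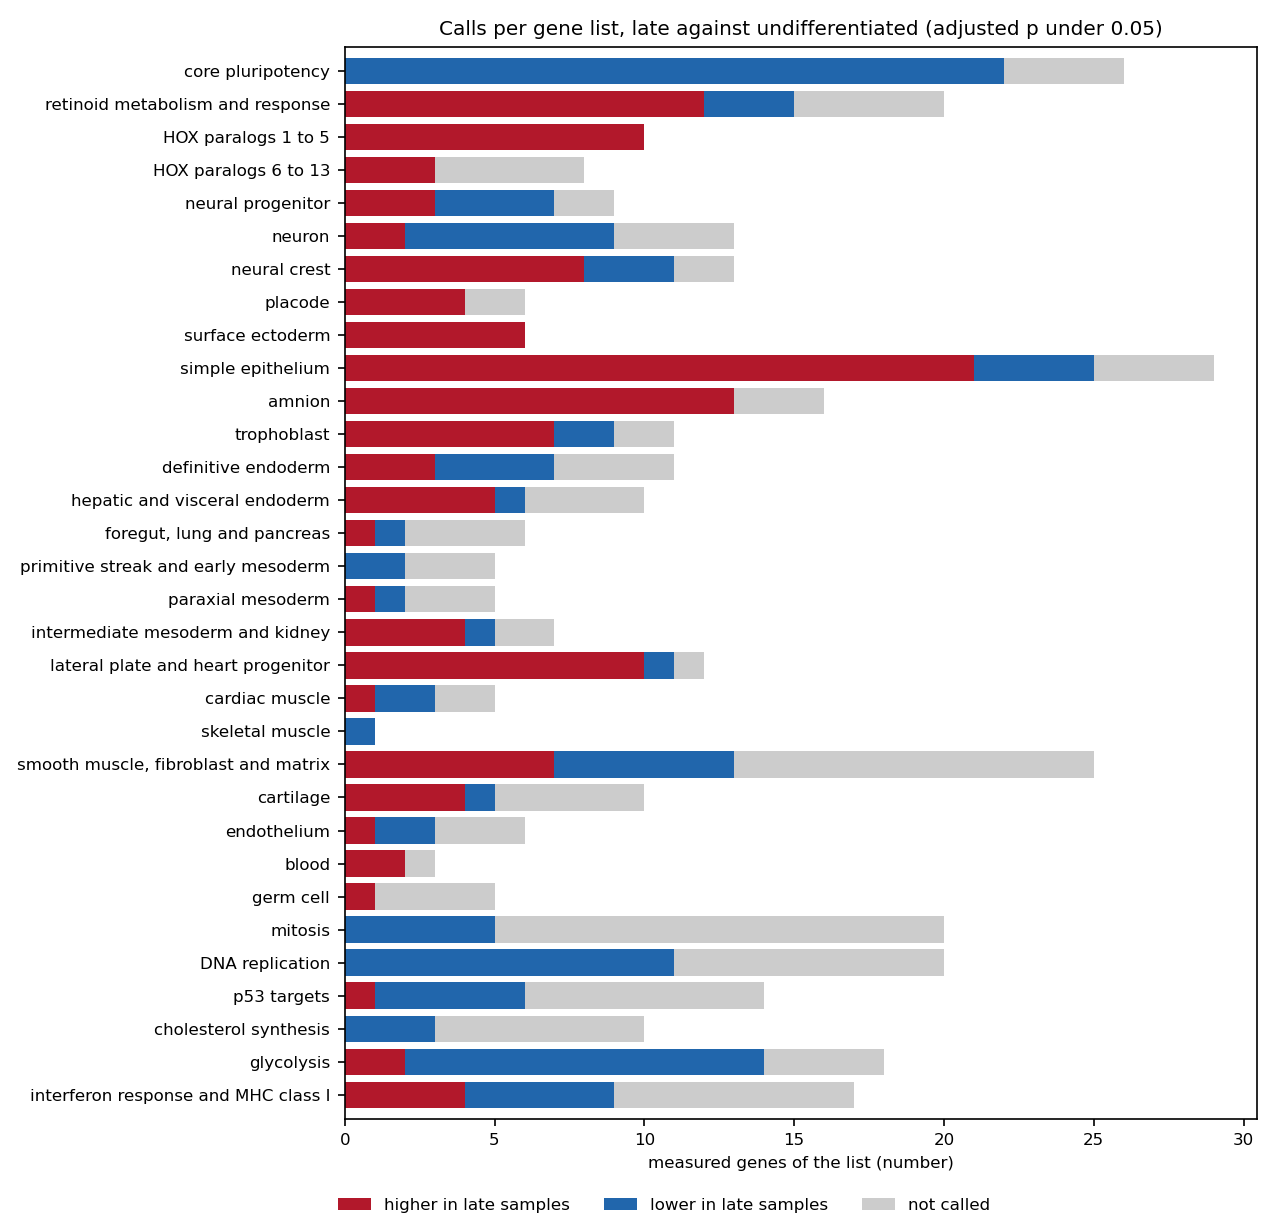
Number of measured genes on each of 32 lists that were higher, lower or not called in late against undifferentiated samples (adjusted p under 0.05). Core pluripotency has 22 lower of 26, HOX paralogs 1 to 5 have 10 higher of 10, and most mitosis genes, 15 of 20, were not called.

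The lateral plate gives rise to the heart and limbs. Of 12 measured genes of lateral plate and heart progenitors 10 were called higher and 1 lower (8 and 1 with the ACTB covariate), with a median difference of 2.98. With no filter on present calls 11 of 17 were higher and 1 lower, with a median of 2.17. GATA6, a zinc finger factor of heart mesoderm and endoderm, had signals of 1263, 2082 and 2319 in late samples and 7.37, 29.6 and 79.2 in undifferentiated samples. It rose by 6.23 ± 0.45 (adjusted p = 1.65e-08), and by 4.37 to 6.56 under the alternative settings listed below. TBX3, a T-box repressor, had 1591, 2884 and 4373 in late samples and 49.2, 87.5 and 244 in undifferentiated samples, at least 25.6-fold higher (adjusted p = 1.84e-08). HAND1, a bHLH factor of heart and extraembryonic mesoderm, had 178, 464 and 735 in late samples and 20.2, 56.1 and 100.3 in undifferentiated samples, and rose by 2.90 ± 0.43 (adjusted p = 4.86e-05). In each of these 3 genes every late sample exceeded every undifferentiated one. BMP4, a ligand that patterns mesoderm, had 476, 659.7 and 846 in late samples and 10.5, 35.5 and 137 in undifferentiated samples, at least 12.7-fold higher (adjusted p = 4.53e-06), with 3 late samples called present. The member that fell was KDR, the VEGF receptor that marks vascular progenitors. KDR had 28.4, 40.3 and 54.5 in late samples, none of them present, and 680.3, 762 and 958 in undifferentiated samples, at least 19.2-fold lower (adjusted p = 6.32e-11).

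Genes of differentiated heart muscle had no common direction. Of 5 measured cardiac muscle genes NPPB, which encodes a natriuretic peptide, was called higher and 2 were called lower (1 and 0 with the ACTB covariate). The shares over all genes were 21.7% higher and 20.1% lower. Troponin T, the atrial and ventricular myosins and NPPA were not among the 5. With no filter on present calls 15 of the list's 16 genes had a probe set, 2 of them called higher and 2 lower. Most of the genes left out thus had a probe set but too few present calls. NPPB had 649, 1013 and 1771 in late samples and 160.4, 319 and 437 in undifferentiated samples, and rose by 1.97 ± 0.27 (adjusted p = 2.26e-05). ACTC1, cardiac actin, had 1359, 2268 and 2645 in late samples and 2246, 6977 and 8654 in undifferentiated samples, and fell by 1.32 ± 0.31 (adjusted p = 0.00238), a call that ended with the ACTB covariate (difference -1.14, adjusted p = 0.191). For ACTC1 the sides overlapped. The primitive streak gene TBXT had 44.1, 99.3 and 168 in late samples and 53.8, 159.5 and 246 in undifferentiated samples, which was not called (adjusted p = 0.381), and no late sample had it present. EOMES, a T-box factor of the streak and of endoderm, had 152, 172 and 244 in late samples and 692, 986 and 1775 in undifferentiated samples, and fell by 2.53 ± 0.26 (adjusted p = 7.05e-07).

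Endoderm forms the gut lining, and visceral endoderm feeds the early embryo. Of 11 measured definitive endoderm genes 3 were called higher (GATA6, FOXA2 and FOXA1) and 4 lower (CXCR4, CER1, EOMES and FOXA3). Over all genes 21.7% were called higher and 20.1% lower. FOXA2, a forkhead pioneer factor, was present in all 6 late samples, with 176, 274 and 328, and in no undifferentiated sample, with 7.68, 9.41 and 38.4. It was at least 9.07-fold higher (adjusted p = 2.47e-07), whereas another probe set, which stood for FOXA2 with no filter on present calls, differed by -0.40. CXCR4, a chemokine receptor of definitive endoderm, had 5.13, 23.7 and 39.8 in late samples, none present, and 102, 235 and 352 in undifferentiated samples, at least 6.94-fold lower (adjusted p = 3.66e-05). These 2 endoderm genes moved in opposite directions. Of 10 hepatic and visceral endoderm genes 5 were called higher and 1 lower. With no filter on present calls 5 of 18 were higher and none lower, with a median difference of 0.62. LRP2, the endocytic receptor megalin, had 3600.1, 4144 and 4997 in late samples and 44.8, 100.1 and 319.7 in undifferentiated samples, and rose by 5.23 ± 0.36 (adjusted p = 6.42e-09). TTR, which encodes the retinol and thyroxine carrier transthyretin, had 372, 651 and 1302 in late samples and 47.3, 62.0 and 135 in undifferentiated samples, at least 10.6-fold higher (adjusted p = 2.54e-07). Neither gene overlapped between the sides. AFP, the fetal serum protein, had 21.3, 77.7 and 427 in late samples and 90.4, 194 and 476 in undifferentiated samples, a difference of -1.43 ± 0.59 that was not called (adjusted p = 0.0628). It was called lower with the ACTB covariate (difference -3.45, adjusted p = 0.0146) and after quantile normalization (difference -1.54, adjusted p = 0.0497). The same held without both day 10 samples (difference -2.11) and without both H1 day 0 samples (difference -1.77). Left out alone, day 10 replicate 1 or H1 day 0 replicate 1 let AFP be called, and without it AFP fell by 1.93 in the first case and fell by 1.66 in the second.

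Neural genes were called both ways. Of 9 measured neural progenitor genes 3 were called higher and 4 lower, and of 13 neuronal genes 2 were higher and 7 lower. With the ACTB covariate those counts were 3 and 3 for progenitors and 1 and 4 for neurons. Over all genes, without the covariate, 21.7% were called higher and 20.1% lower. ZIC2, a zinc finger factor of anterior neural plate and of stem cells, had signals of 11.4, 134 and 246 in late samples and 13027, 14728 and 20131 in undifferentiated samples. It fell by 7.38 ± 0.52 (adjusted p = 8.96e-09) and was called present in 1 late sample. OTX2, a forebrain and midbrain homeodomain factor, had 30.4, 71.1 and 142 in late samples and 1071, 2001 and 4018 in undifferentiated samples, and fell by 4.76 ± 0.37 (adjusted p = 2.81e-08). ZIC2 and OTX2 were thus far lower in every late sample than in any undifferentiated one. DACH1, a transcriptional cofactor of eye and limb, had 1084, 1841 and 3502 in late samples and 72.8, 139 and 212 in undifferentiated samples, and rose by 3.90 ± 0.29 (adjusted p = 1.95e-08). PAX6, an eye and neural tube factor, had 119, 188 and 785 in late samples and 11.7, 81.4 and 122 in undifferentiated samples, at least 2.51-fold higher (adjusted p = 0.0158). The PAX6 sides overlapped, and the call ended without the day 8 samples or without H9. GAP43, a growth cone protein, had 15.5, 51.7 and 73.8 in late samples and 464, 659 and 1096 in undifferentiated samples, and fell by 4.06 ± 0.36 (adjusted p = 1.48e-07). ISL1, a LIM homeodomain factor of motor neurons that the amnion and heart lists share, had 241, 484 and 1512 in late samples and 21.4, 44.7 and 84.6 in undifferentiated samples, at least 12.04-fold higher (adjusted p = 9e-06).

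Neural crest and placodes arise at the border of neural plate and skin. Of 13 neural crest genes 8 were called higher and 3 lower, and 4 and 3 with the ACTB covariate. With no filter on present calls 7 of 17 were higher and 3 lower, and the median difference was 0.23, against 2.05 with the filter. MSX2, a homeodomain target of BMP, had 423, 1306 and 1832 in late samples and 9.82, 55.1 and 72.5 in undifferentiated samples, and rose by 4.68 ± 0.46 (adjusted p = 5.67e-07). MSX1 had 127, 885 and 1741 in late samples and 5.76, 36.7 and 82.6 in undifferentiated samples, and rose by 4.48 ± 0.70 (adjusted p = 8e-05), a call that ended with the covariate (difference 3.28, adjusted p = 0.0855). With no filter on present calls other probe sets stood for both genes, at -0.12 for MSX2 and -0.73 for MSX1. SOX10, the marker of migrating crest, had a probe set but too few present calls to be tested. SNAI2 differed by 0.60 ± 0.48 (adjusted p = 0.332). Of 6 placode genes 4 were called higher and none lower, with a median difference of 3.36, or 2.15 with bounds. Without the filter 4 of 9 placode genes were higher and none lower, with a median of 1.45. EYA1, a cofactor of the sensory placodes and kidney, had 306, 350.6 and 449.8 in late samples and 7.62, 15.8 and 91.4 in undifferentiated samples, at least 10.4-fold higher (adjusted p = 1.77e-06). DLX5, a homeodomain factor of placodes and bone, had 227, 333 and 529 in late samples and 7.78, 37.8 and 85.7 in undifferentiated samples, at least 7.21-fold higher (adjusted p = 4.79e-05). In both the late samples lay wholly above.

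Of 25 measured smooth muscle, fibroblast and matrix genes 7 were called higher and 6 lower, near the shares over all genes of 21.7% higher and 20.1% lower. With the ACTB covariate 3 were higher and 4 lower, and the list's summed signal was 16945 to 31061 in late samples and 24941 to 43917 in undifferentiated samples. THY1, a surface glycoprotein of stem cells and fibroblasts, had 122, 153 and 197 in late samples and 2883, 4591 and 7492 in undifferentiated samples, and fell by 4.95 ± 0.22 (adjusted p = 4.7e-11). COL1A1, a chain of type I collagen, had 779, 2512 and 3475 in late samples and 223, 279 and 483 in undifferentiated samples, and rose by 2.76 ± 0.30 (adjusted p = 1.82e-06). THY1 and COL1A1 each separated the sides, in opposite directions. COL2A1, a chain of cartilage and notochord collagen, had 2163, 4385 and 6508 in late samples and 50.6, 101 and 349 in undifferentiated samples. It rose by 5.11 ± 0.38 (adjusted p = 2.15e-08), the largest rise among called genes that did not overlap and were present in at least 4 samples of each side. Of 10 cartilage genes 4 were called higher and 1 lower (2 and 0 with the ACTB covariate).

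Other large rises came from genes detected on both sides. PKDCC, a secreted tyrosine kinase of limb and skeleton, had signals of 10984, 15920.0 and 17078 in late samples and 490.0, 734 and 1335 in undifferentiated samples, and rose by 4.34 ± 0.23 (adjusted p = 1.68e-10). DOCK9, an activator of CDC42, had 3663, 3830.3 and 4237 in late samples and 154, 172 and 299 in undifferentiated samples, and rose by 4.34 ± 0.16 (adjusted p = 5.06e-12). ARHGAP29, AHNAK and PDGFC rose by 3.85 ± 0.19, 3.77 ± 0.21 and 3.63 ± 0.23. Each of these rises came without overlap. LGALS1, a galactose-binding lectin, had 136, 216 and 925 in late samples and 2173, 4281 and 9352 in undifferentiated samples, and fell by 3.96 ± 0.46 (adjusted p = 3.19e-06). PTPRZ1, a receptor phosphatase of neural progenitors, had 2.92, 54.5 and 75.7 in late samples and 1263, 2003 and 2786 in undifferentiated samples, and fell by 5.87 ± 0.60 (adjusted p = 8.38e-07). The lowest PTPRZ1 signal came from day 9 replicate 2, and without it PTPRZ1 fell by 5.15.

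Detection itself changed sides for some genes. Among called genes, 188 were present in all 6 late samples and in no undifferentiated sample, and 54 were the reverse. LINC02381, a noncoding RNA gene, had 22316, 26252 and 31743 in late samples and 17.4, 70.3 and 115 in undifferentiated samples, at least 306-fold higher (adjusted p = 2.53e-11). This was the highest such bound. KANK4, a cytoskeletal adaptor, had 4448, 6293 and 6778 in late samples and 14.0, 38.4 and 76.2 in undifferentiated samples, at least 83.4-fold higher (adjusted p = 2.13e-11). ZNF703, a zinc finger corepressor, had 3495, 3693 and 4171 in late samples and 26.3, 36.2 and 44.9 in undifferentiated samples, at least 53.1-fold higher (adjusted p = 1.69e-13). These 3 transcripts were strong on every late day and undetected in all 3 undifferentiated lines. In the other direction, FOXD3-AS1, a noncoding neighbour of the stem cell factor FOXD3, had 27.5, 52.7 and 146 in late samples and 2878, 3668 and 5528 in undifferentiated samples, at least 50.7-fold lower (adjusted p = 1.71e-09). FLT1, a VEGF receptor, had 11.4, 15.9 and 125 in late samples and 2176, 2483 and 4095 in undifferentiated samples, at least 42.8-fold lower (adjusted p = 2.88e-09), while its other probe sets fell by 0.22 to 3.83. The probe sets of FLT1 thus differed widely in the size of the fall. LCK, a kinase best known from T cells, had 11.2, 15.0 and 25.4 in late samples and 922, 1101 and 1242 in undifferentiated samples, at least 37.7-fold lower (adjusted p = 1.01e-11). SPRY4, a feedback inhibitor of FGF signalling, had 45.3, 104 and 169 in late samples and 1646, 2124 and 2633 in undifferentiated samples, at least 21.8-fold lower (adjusted p = 5.8e-10).

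MYC, a driver of growth and ribosome synthesis, was present in no late sample. It had signals of 5.14, 93.6 and 113 in late samples, against 1454, 2294 and 2747 in undifferentiated samples, at least 30.0-fold lower (adjusted p = 2.3e-06), and its lowest signal came from day 8 replicate 2. PMAIP1, the apoptosis activator NOXA, had 217, 352 and 594 in late samples and 5646, 7556 and 15308 in undifferentiated samples, and fell by 4.60 ± 0.27 (adjusted p = 1.46e-09). Both fell without overlap. KLF4, a reprogramming factor that epithelia also use, had 187, 275 and 526 in late samples and 101, 141 and 177 in undifferentiated samples, and rose by 1.11 ± 0.26 (adjusted p = 0.00245). Of 20 mitosis genes 0 were called higher and 5 lower, beside 20.1% called lower over all genes, with a median difference of -0.27. Without day 10 replicate 2 that median was -0.17, and without both H9 samples 10 were called lower. DNA replication genes had 11 of 20 called lower and none higher, with a median of -0.43, 7 lower without HUES8 replicate 1 and 8 with the group as a random block. With the ACTB ratio as a covariate 1 gene of each list was called, lower in both cases. CDC6, which loads the replicative helicase, had 114, 257 and 435 in late samples and 313, 649 and 920.2 in undifferentiated samples, and fell by 1.35 ± 0.29 (adjusted p = 0.00138), a call that the covariate ended (difference -1.01, adjusted p = 0.217).

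Stem cells in culture rely heavily on glycolysis. Of 18 measured genes of the pathway 12 were called lower and 2 higher, with a median difference of -0.68, and with the ACTB covariate 7 were lower and 0 higher. PGK1, which makes the first ATP of the pathway, had 1585, 2099.6 and 3328 in late samples and 5679, 8946 and 10616 in undifferentiated samples, and fell by 1.92 ± 0.19 (adjusted p = 6.29e-07). HK1, a hexokinase, had 1057, 1155 and 1363 in late samples and 3490.3, 4025 and 5548 in undifferentiated samples, and fell by 1.85 ± 0.12 (adjusted p = 2.88e-09). The 2 genes called higher were PFKM, a phosphofructokinase, by 0.51 ± 0.12, and the glucose transporter SLC2A3, by 0.62 ± 0.15. Both were named after their values were seen.

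Setting the late days against each line by itself asks which differences do not rest on the mix of lines. In a fit of all 13 groups, 1716 genes (14.1%) differed from H1 day 0, from H9 and from HUES8 in the same direction with the largest of the 3 p-values still called, 931 higher (7.63%) and 785 lower (6.43%). Of these, 1715 were also called in the pooled comparison, which is no separate check, as it averages the same 3 differences. Without H1 day 0 replicate 2 the number was 1098, and with the ACTB covariate it was 905. Against single lines the calls came to 3283 genes for H1 day 0 (26.9%), 4467 for H9 (36.6%) and 3674 for HUES8 (30.1%). On the pluripotency list 20 of 26 genes were lower than in each line, and on the list of HOX groups 1 to 5 9 of 10 were higher than in each. Of the simple epithelium genes 16 of 29 were higher than in each line, and of the amnion genes 10 of 16. By contrast 1 of 20 DNA replication genes and 2 of 20 mitosis genes were lower than in each line, beside 6.43% over all genes. NANOG differed by -5.17 against H1 day 0, -5.10 against H9 and -5.32 against HUES8 (adjusted p = 2.09e-09). KRT19 rose by 3.39 against H1 day 0, 2.90 against H9 and 3.12 against HUES8 (adjusted p = 9.84e-10). Each of the 3 lines gave the same direction. CYP26A1 rose by 4.21 against H1 day 0, 2.58 against H9 and 3.27 against HUES8 (adjusted p = 2.13e-09), with signals of 1853 and 1162 in H1 day 0, 5082 and 4088 in H9 and 3141 and 2543 in HUES8.

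For other genes an untreated line already reached the range of the late samples, though not always their median. Among 1059 genes called at least 2-fold higher than H1 day 0, both samples of H9 or of HUES8 lay inside or beyond the late range for 102 (9.63%). Among 717 called at least 2-fold lower this held for 76 (10.6%). ERVH48-1, an endogenous retroviral envelope gene, shows how far lines can differ. Its signals were 3185, 4106 and 5072 in late samples, against 22248 and 21995 in H1 day 0, 10459.8 and 12376 in H9 and 496 and 484 in HUES8. The late mean was lower than that of H1 day 0 by 2.46 and higher than that of HUES8 by 3.04, and the pooled difference of -0.31 ± 0.83 was not called (adjusted p = 0.794). EGR1, an immediate early gene of growth factor signalling, had 327, 776 and 1824 in late samples, against 5984 and 6072 in H1 day 0, 588 and 808 in H9 and 2788 and 7636 in HUES8. Over the pooled lines EGR1 fell by 1.90 ± 0.59 (adjusted p = 0.0163), which lost its call without H1 day 0 or without HUES8, as well as without day 9 or without day 10, or when its probe sets were averaged. PCDH17, a protocadherin, had 130.1, 528 and 726 in late samples, against 20.9 and 27.3 in H1 day 0, 143 and 182 in H9 and 108 and 166 in HUES8. It was at least 3.30-fold higher over the pooled lines (adjusted p = 0.00448), a call that ended with the ACTB covariate (difference 1.22, adjusted p = 0.372), and the lowest late sample lay below both of H9.

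**Figure D4:**
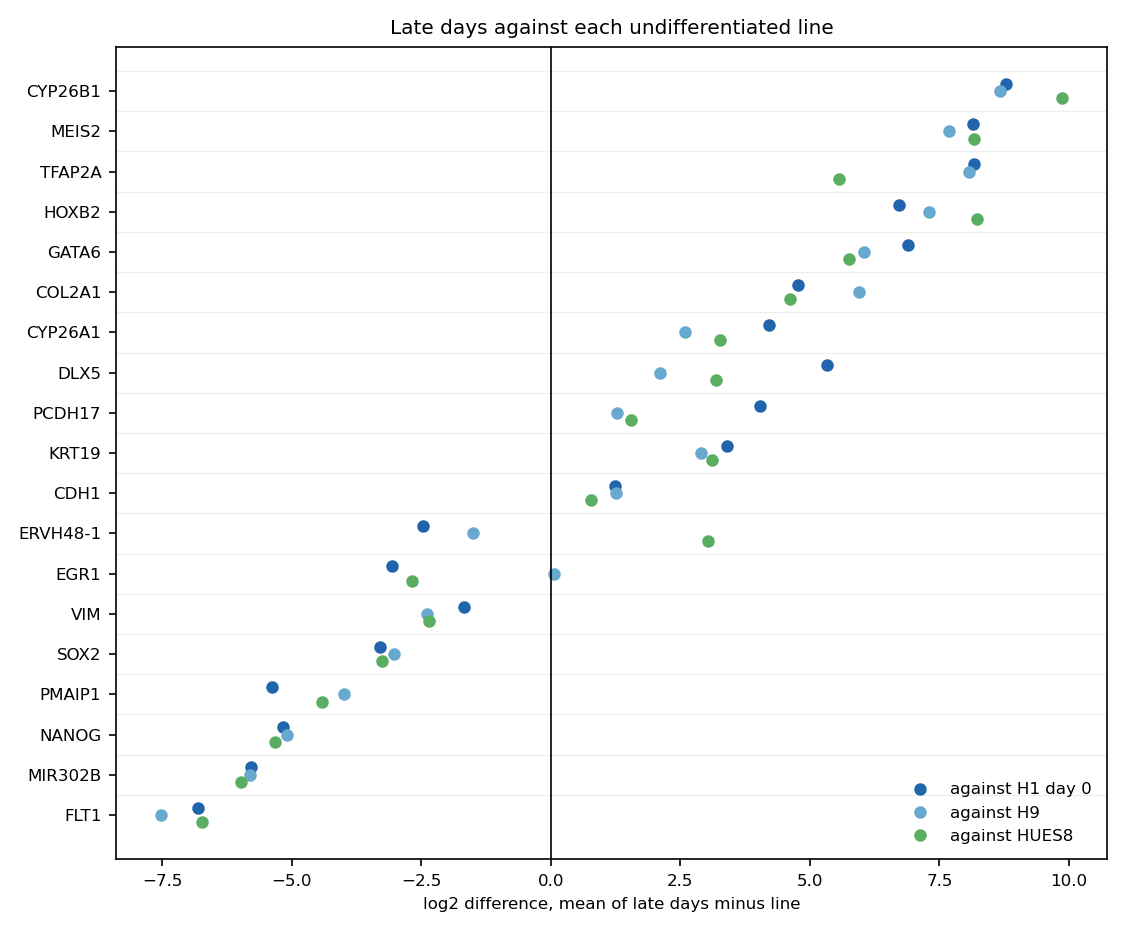
Difference of the mean log2 signal of days 8 to 10 from each undifferentiated line (horizontal axis, log2 units) for 19 genes, 1 point per line. ERVH48-1 lies on both sides of 0, EGR1 is at 0.06 against H9, and CYP26B1, HOXB2, NANOG and MIR302B keep their direction against all 3 lines.

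A comparison within H1 set days 8 to 10 against days 5 to 7, 6 samples a side, to show where the late days differ from the middle of the course. It called 1820 genes (14.9%), 878 higher (7.2%) and 942 lower (7.72%), and 214 and 183 of them changed at least 2-fold. Single libraries weighed on that number, which was 983 without day 6 replicate 2, 1009 without day 5 replicate 2, 1027 without day 10 replicate 1 and 1147 without day 10 replicate 2. Centred on control probe sets, the split was 1122 higher and 600 lower. The sides did not overlap for 621 genes (5.09%). Of the 26 pluripotency genes 17 were called lower between these days, LIN28A among them. DNMT3B had signals of 883, 1703 and 3076 on days 8 to 10 and 3498, 8175 and 14067 on days 5 to 7, and fell by 2.19 ± 0.33 (adjusted p = 0.00183). MIR302B had 329, 1437 and 4421 on days 8 to 10 and 6829, 17962 and 38894 on days 5 to 7, and fell by 3.86 ± 0.53 (adjusted p = 0.00182). For neither did the 2 sides overlap. Of the 10 genes of HOX groups 1 to 5, 3 were called higher between these days and 1 lower, and of the 20 retinoid genes 4 higher and 2 lower. HOXC5 rose by 1.64 ± 0.32 (adjusted p = 0.00561) and CRABP2 fell by 0.83 ± 0.19 (adjusted p = 0.0119). HOXB2, CYP26A1 and MEIS2 were not called. HOXB2 had 3103, 3678 and 4528 on days 8 to 10 and 3946, 4024 and 4305 on days 5 to 7, a difference of -0.15 ± 0.09 (adjusted p = 0.287). CYP26A1 differed by -0.03 ± 0.12 (adjusted p = 0.904) and MEIS2 by 0.16 ± 0.10 (adjusted p = 0.281).

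CYP26B1 had 2809, 5007 and 9738 on days 8 to 10 and 269, 979.7 and 2607 on days 5 to 7, and rose by 2.51 ± 0.45 (adjusted p = 0.00377). EFEMP1, a matrix fibulin, had 1440.3, 2708 and 3807 on days 8 to 10 and 247, 667 and 1202 on days 5 to 7, and rose by 2.07 ± 0.33 (adjusted p = 0.0023). RIPPLY3, a corepressor of T-box factors in pharyngeal endoderm, had 518, 989 and 1341 on days 8 to 10 and 95.4, 231 and 412 on days 5 to 7, and rose by 2.04 ± 0.33 (adjusted p = 0.0023). In all 3 the late days lay above every sample of days 5 to 7, and the same held for a pair of endoderm genes. FOXA2 had 176, 274 and 328 on days 8 to 10 and 5.81, 14.8 and 149 on days 5 to 7, where no sample had it present, and was at least 6.46-fold higher (adjusted p = 0.0037). TTR had 372, 651 and 1302 on days 8 to 10 and 51.2, 65.4 and 263 on days 5 to 7, and rose by 2.99 ± 0.39 (adjusted p = 0.00182). ZNF503, a zinc finger repressor, was higher late than in undifferentiated cells, by 3.61 ± 0.54 (adjusted p = 4.6e-05), but lower than on days 5 to 7. It had 488, 1024 and 2025 on days 8 to 10 and 2309, 4485 and 8741 on days 5 to 7, and fell by 2.19 ± 0.31 (adjusted p = 0.00182). HAND1 also fell between these days, by 1.26 ± 0.31 (adjusted p = 0.0158), and CDH2 rose by 1.01 ± 0.24 (adjusted p = 0.0146).

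**Figure D5:**
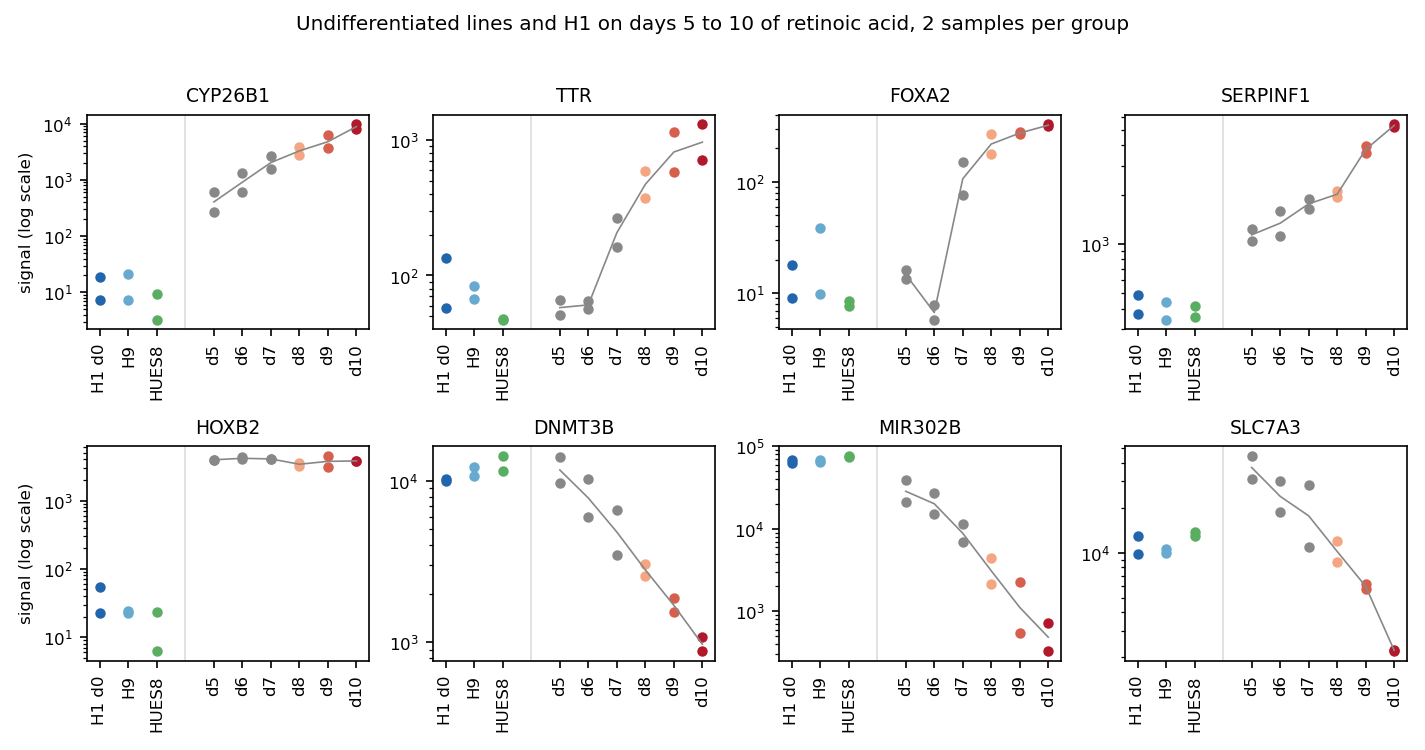
Signal (log scale) of 8 genes in the undifferentiated lines and in H1 on days 5 to 10, 2 samples per group as points, with a line through the daily means of log2 signal. HOXB2 stays between 3103 and 4528 from day 5 on, CYP26B1, TTR, FOXA2 and SERPINF1 are higher on later days, and DNMT3B, MIR302B and SLC7A3 are lower.

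Within the late side, day 10 differed from day 8 for 26 genes (0.213%), 7 higher (0.0574%) and 19 lower (0.156%), in a fit with 2 samples a day that pools the spread of all 13 groups. That balance rested on single libraries, with 14 higher and 10 lower without day 8 replicate 1, 7 higher and 5 lower without day 8 replicate 2, and 22 higher and 126 lower without day 10 replicate 1. SERPINF1, a secreted serpin that restrains vessel growth, had signals of 5220.3 and 5394 on day 10 and 1933 and 2089 on day 8, and rose by 1.40 ± 0.21 (adjusted p = 0.0058). PCDH19, a protocadherin, had 33.3 and 34.8 on day 10 and 514 and 806 on day 8, where alone of these days it was present, and was at least 12.1-fold lower (adjusted p = 0.00461). These 2 calls held with any 1 library of either day left out. SLC7A3, a transporter of cationic amino acids, had 2246 and 2199 on day 10 and 8641 and 12034 on day 8, and fell by 2.20 ± 0.33 (adjusted p = 0.0058). Its call ended without day 8 replicate 2 (adjusted p = 0.0634). MIR302B had 712 and 329 on day 10 and 4421 and 2161 on day 8, and fell by 2.67 ± 0.52 (adjusted p = 0.0273), a call that ended without day 10 replicate 2 or without day 8 replicate 1. TUNAR, a noncoding RNA of stem and neural cells, had 529 and 514 on day 10 and 1686 and 3856 on day 8, and fell by 2.29 ± 0.42 (adjusted p = 0.0202), which was lost without day 10 replicate 2 or day 8 replicate 2. Without day 10 replicate 2 the number of calls was 16. The split also moved with the scaling, to 7 higher and 8 lower when centred on control probe sets.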

How the data were processed

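Total RNA of 26 samples in 13 groups of 2 was read on 2 chips each, 52 arrays. Per the submitters' processing notes the deposited signals, linear intensities, were made with MAS5, whose version and scaling are not given in the sources used here, and each signal comes with a deposited detection p-value. No counts exist for arrays, so the number of arrays limits the precision. Signals were taken to log2 with no pseudocount and no further normalization, each chip by itself.

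Of the probe sets, 34491 were annotated to 1 gene, 1597 to several, 8704 to none, and 136 were controls. Symbols of 34454 matched RefSeq. Probe sets of 1 gene were kept if 2 or more of their chip's 26 arrays called them present. Of these the one with the highest mean log2 signal stood for its gene, which left 12201 genes. Probe sets with names ending in _x_at or _s_at were used only where a gene had no other kept, whatever their mean. Sides were compared with limma 3.58.1 (R 4.3.3, lmFit and eBayes with an intensity trend). The comparisons with each line and of day 10 with day 8 used group means over all 13 groups. ACTB ratios were compared by exact permutation. The tests were tried on simulated data first. Replicate numbers did not pair late days with undifferentiated lines: deviations of same-numbered samples correlated at -0.056 to 0.041 over 9 pairs. Pairing among the days of the H1 course was not checked.

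Named genes were the 10 largest changes per direction among genes present on both sides, the 10 largest bounds per direction, up to 4 called members of each list, 6 per direction against days 5 to 7, 5 per direction between days 10 and 8, 4 per direction for line differences, and 15 chosen ones. Not every gene these rules gave is described. AP1M2, CD24, CER1, CLDN6, CRABP2, FOXA3, HOXB6, LIN28A, LIN28B, LRAT, MAL2, OCLN, PFKM, RDH11, SLC2A3, SNAI2 and TERT were named after their values were seen. Members and lists were chosen with earlier results of these data known. Alternatives were the scaling, the filter, the probe set rule, the offset, the trend, blocks, the ACTB ratio as a covariate and leaving out samples.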

Additional observations from a re-analysis of the deposited data

Results flagged for a closer look

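In 7 of 240 sides of 6 samples (2.92%), 1 sample stood apart by Dixon's test at the 95% level, where chance gives about 1 in 20. On the late side these were day 8 replicate 1 for FLT1, with a signal of 125, and for FOXA2, with 176. Day 10 replicate 2 stood low for KRT7, with 736, and day 9 replicate 2 for PTPRZ1, with 2.92. Day 10 replicate 1 had the highest A chip ACTB ratio, 1.89. On the undifferentiated side HUES8 replicate 2 stood low for LEFTY1, with 3615, and high for ZIC2, with 20131.

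Some named genes differed between the undifferentiated lines, so that the change against one line differed from that against another. The differences were tested in the group means fit with n = 2 a line, as log2 means of H9 or HUES8 minus H1 day 0. ERVH48-1 was lower in both, at -0.96 for H9 and -5.50 for HUES8. BMP4 was at 1.69 for H9 and 3.19 for HUES8, DLX5 at 3.23 for H9 and 2.15 for HUES8, and ACTC1 at 1.66 for H9 and 1.62 for HUES8. BMP4 and DLX5 had no present call in any of these lines, so their values lie below detection. In the next genes the difference was called for H9 alone, at 2.76 for PCDH17, also below detection, 1.63 for CYP26A1, 1.05 for PDGFC, 1.04 for AHNAK, -1.38 for PMAIP1, -1.52 for EFEMP1 and -3.13 for EGR1.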

How the results depend on the processing

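The number of genes called in late against undifferentiated samples stayed within 1.5 times under every alternative run except the ACTB ratio as a covariate, which gave 1938, and with single libraries left out it was 4614 to 5150. That covariate also gave 905 against each line and 1045 against days 5 to 7. Against each line 1 library left out gave 1098 to 1681, and against days 5 to 7 it gave 983 to 2400. Day 10 against day 8 gave 12 to 148 with 1 library left out, 15 when centred on control probe sets and 3 with no intensity trend. With the replicate number as a block the counts were 5082, 2035, 2483 and 51 in the 4 comparisons. The last 2, within H1, stood at 1820 and 26 without the block, and pairing among these days was not checked. Splits moved by over 10 points to 9 higher and 15 lower between days 10 and 8 on log2(signal + 64), to 2 and 1 with no trend, to 14 and 10 without day 8 replicate 1, to 7 and 5 without day 8 replicate 2 and to 22 and 126 without day 10 replicate 1, and for centring on control probe sets as given in the report. The ACTB ratio difference was 0.228 to 0.316 on the A chip and 0.210 to 0.292 on the B chip with 1 library left out.

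Among named genes 12 values reversed. With no detection filter another probe set stood for FOXA2 (-0.40), MSX1 (-0.73) and MSX2 (-0.12). With the ACTB covariate ERVH48-1 was at 0.34, SNAI2 at -0.12 and TBXT at 0.68, none of which was called in the report. ERVH48-1 ranged from -0.98 to 0.12 with 1 library left out, the highest without either H1 day 0 library, and was at 0.77 without both, 0.29 without H9 and -1.98 without HUES8, where it was called (adjusted p = 3.4e-06). LIN28B was at 0.019 after quantile normalization and 0.046 when centred on control probe sets. Other named genes lost their call in late against undifferentiated samples in 36 cases, gained one in 17 and kept their side of the threshold in 3352. The cause was not tested. Retinoic acid and days in culture, and the ACTB ratio and side, cannot be told apart, and signals without a present call bound a change from one side only. Differences from H9 and HUES8 mix line with treatment, whereas those from H1 day 0 lie within 1 line.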

Other observations

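Of 17 measured interferon and MHC class I genes 4 were called higher and 5 lower, beside 21.7% higher and 20.1% lower over all genes. With the ACTB covariate 1 was higher and 3 lower. IFITM1, an antiviral membrane protein, had signals of 1896, 2243 and 2975 in late samples and 10384, 12601 and 16955 in undifferentiated samples, and fell by 2.48 ± 0.14 (adjusted p = 7.99e-10). ISG15, a ubiquitin-like interferon product, had 167, 272 and 327 in late samples and 690.5, 868 and 962 in undifferentiated samples, and fell by 1.80 ± 0.18 (adjusted p = 7.36e-07). IRF9, a component of the interferon-activated complex, had 318, 403 and 515 in late samples and 140.2, 153 and 172 in undifferentiated samples, and rose by 1.37 ± 0.16 (adjusted p = 4.02e-06). None of the 3 overlapped. Of 14 measured p53 targets 1 was called higher and 5 lower, 1 and 1 with the ACTB covariate and 3 lower without either H9 library. The one called higher was TP53INP1, a stress protein, with 3985, 4640.0 and 5848 in late samples and 739, 1062 and 1313 in undifferentiated samples, a rise of 2.24 ± 0.15 (adjusted p = 4.35e-09).

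Markers of blood and vessels were few. Of 6 endothelial genes 1 was called higher and 2 lower, beside 21.7% higher and 20.1% lower over all genes. On that list 9 more, PECAM1 and CD34 among them, had probe sets but too few present calls to be tested. The one called higher was CDH5, the vascular cadherin, which was present in 2 late samples with 91.6, 136 and 261, against 3.17, 11.1 and 42.5 in undifferentiated samples. It was at least 5.03-fold higher (adjusted p = 8.56e-05). HBE1, embryonic globin, had 267, 425 and 789.5 in late samples and 22.7, 44.8 and 83.6 in undifferentiated samples, where it was never called present, and was at least 8.99-fold higher (adjusted p = 1.72e-06). In the kidney and intermediate mesoderm list 4 of 7 genes were called higher and 1 lower. With no filter on present calls 4 of 13 were higher and 1 lower, and the median difference was -0.00025, against 2.92 with the filter. OSR1, a zinc finger factor of that tissue, had 228, 299 and 483 in late samples and 4.53, 11.7 and 28.6 in undifferentiated samples, at least 4.53-fold higher (adjusted p = 4.18e-06). It was present in 3 late samples.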
